A study of Ovis aries with 16 samples.

Results

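Ribosomal protein genes were examined in the hypothalamus of late-gestation fetal sheep (Ovis aries, Suffolk breed) on 1-color Agilent sheep oligonucleotide arrays. A probe was included if the array design named it as a ribosomal protein, either by a gene name beginning with RPL or RPS and a number or by the words ribosomal protein in its description, leaving out mitochondrial ribosomal proteins and kinases. This gave 32 of the 15008 probes on the array, for 19 of its 14349 distinct gene or transcript names. The large subunit was represented by 8 genes and 13 probes and the small subunit by 11 genes and 19 probes. The 16 arrays came from 16 fetuses of catheterized ewes, and tissue was taken 24 h after the start of a 30 min stimulus. Normoxia control fetuses (NC, n = 3) received saline and 30 min of normoxia, and normoxia plus ketamine fetuses (NK, n = 4) received intravenous ketamine, a blocker of N-methyl-D-aspartate glutamate receptors, before the same normoxia. Hypoxia control fetuses (HC, n = 5) received saline and hypoxia plus ketamine fetuses (HK, n = 4) received ketamine before 30 min of hypoxia, which was produced by lowering the oxygen in the gas breathed by the ewe. All 4 groups then had 23.5 h of normoxia. Most fetuses were twins, and since littermates cannot be recognized from the labels, each fetus was treated as independent. The paper states that normoxia or hypoxia was assigned at random by pregnancy, so any littermates shared it. Intervals and p-values take no account of litters, and the effect of this was not tested.

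The ribosome is built from a small subunit, which reads the messenger RNA, and a large subunit, which joins amino acids, and each subunit holds ribosomal RNA and a set of proteins named RPS or RPL. The transcripts of these proteins are short, among the most abundant in most cells, and carry an oligopyrimidine tract at the start that places their translation under control of the mTOR pathway. Mammalian genomes also hold many processed pseudogenes of this family, which a short probe may not tell from the gene itself. In brain, as elsewhere, these genes are broadly expressed in neurons, glia and vessels, and several of them are used as reference genes for PCR.

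Every probe on the array was 60 bases long. The GC content of the ribosomal protein probes lay between 35.0% and 45.0%, with a median of 44.2%, beside a median of 43.3% over all 15008 probes. The probe sequences on which the results turn are given 5′ to 3′ as the scanner files hold them. The probe for RPL13A, a large-subunit protein that is also part of an interferon-gamma-activated inhibitor of translation, is shown because it alone passed the threshold in a comparison of groups. It began at base 146 of its source sequence.
RPL13A A_70_P030566: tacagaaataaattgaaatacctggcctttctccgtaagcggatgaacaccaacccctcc
The 3 probes for RPL10, an X-linked protein that joins the large subunit late in its assembly, are shown because they read nearly the same bases and so serve as repeated measurements of 1 transcript. Capitals mark the 42 bases that all 3 share.
RPL10 A_70_P029951: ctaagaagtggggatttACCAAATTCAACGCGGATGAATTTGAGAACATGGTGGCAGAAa
RPL10 A_70_P029952: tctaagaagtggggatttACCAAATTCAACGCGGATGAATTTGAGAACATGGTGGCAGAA
RPL10 A_70_P072276: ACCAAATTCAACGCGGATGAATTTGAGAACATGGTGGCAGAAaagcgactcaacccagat
The probes for RPL4, a protein that lines the tunnel through which new peptides leave the ribosome, are shown because they read separate stretches and had no shared run longer than 7 bases.
RPL4 A_70_P001416: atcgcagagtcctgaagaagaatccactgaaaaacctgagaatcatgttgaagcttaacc
RPL4 A_70_P001417: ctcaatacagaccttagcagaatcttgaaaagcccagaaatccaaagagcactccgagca
RPL4 A_70_P001616: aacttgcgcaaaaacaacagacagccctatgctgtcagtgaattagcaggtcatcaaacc
A pair of RPS12 probes, overlapping by the 52 bases in capitals, stands for the probes whose signal exceeded the range of the scanner on every array.
RPS12 A_70_P016536: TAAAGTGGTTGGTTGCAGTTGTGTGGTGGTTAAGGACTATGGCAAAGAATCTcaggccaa
RPS12 A_70_P016537: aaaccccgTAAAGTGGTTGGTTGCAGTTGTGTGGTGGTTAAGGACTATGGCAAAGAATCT
For RPS25, 1 of the 2 bright probes is shown, together with the 20 bases, in capitals, that its 2 dim probes have in common.
RPS25 A_70_P051257: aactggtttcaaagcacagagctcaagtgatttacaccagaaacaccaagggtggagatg
RPS25 A_70_P014906 and A_70_P014907: CACCAAGAAATGTAGGCATG

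The arrays of all groups had similar signal. The 75th percentile of the processed signal was between 1248 and 1597 intensity units, and the share of probes detected well above background ran from 71.8% to 80.6% of an array. The level of a probe is given throughout as log2 of its signal minus the array's 75th percentile, so that a level of 0 is the 75th percentile and a transcript that changed together with all others would show no difference. In tissue, fewer cells of a type and less RNA per cell cannot be told apart. Of the 11 hypothalamic peptide genes listed as tissue markers, 7 were named on the array, and their 14 probes were all well above background on at least 15 of the 16 arrays. Anterior pituitary hormone probes were also well above background, PRL on 15 arrays, CGA on 14 and 15, and LHB on 15 and 16. GH probes reached this on 0 and 1 arrays and FSHB on 4. A share of pituitary in the tissue was not tested. Arrays were run on 2 slides of 8. With group in the model, 20.1% of all 12250 tested probes differed between slides by limma at an unadjusted p under 0.05.

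Ribosomal protein transcripts gave some of the brightest signals in the fetal hypothalamus, and many of them lay beyond what the scanner could measure. Of the 32 probes, 14 (43.8%) were saturated on at least 1 array, against 169 (1.13%) of all 15008 probes. Saturation on all 16 arrays was found for 10 ribosomal protein probes (31.2%) and for 91 probes (0.606%) in the whole array. A mean level above the array's 75th percentile was found for 28 of the 32 probes (87.5%), against 25% of all probes. These shares describe the signal of probes, which also depends on the sequence of each probe, and do not rank the transcripts by abundance.

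**Figure D1:**
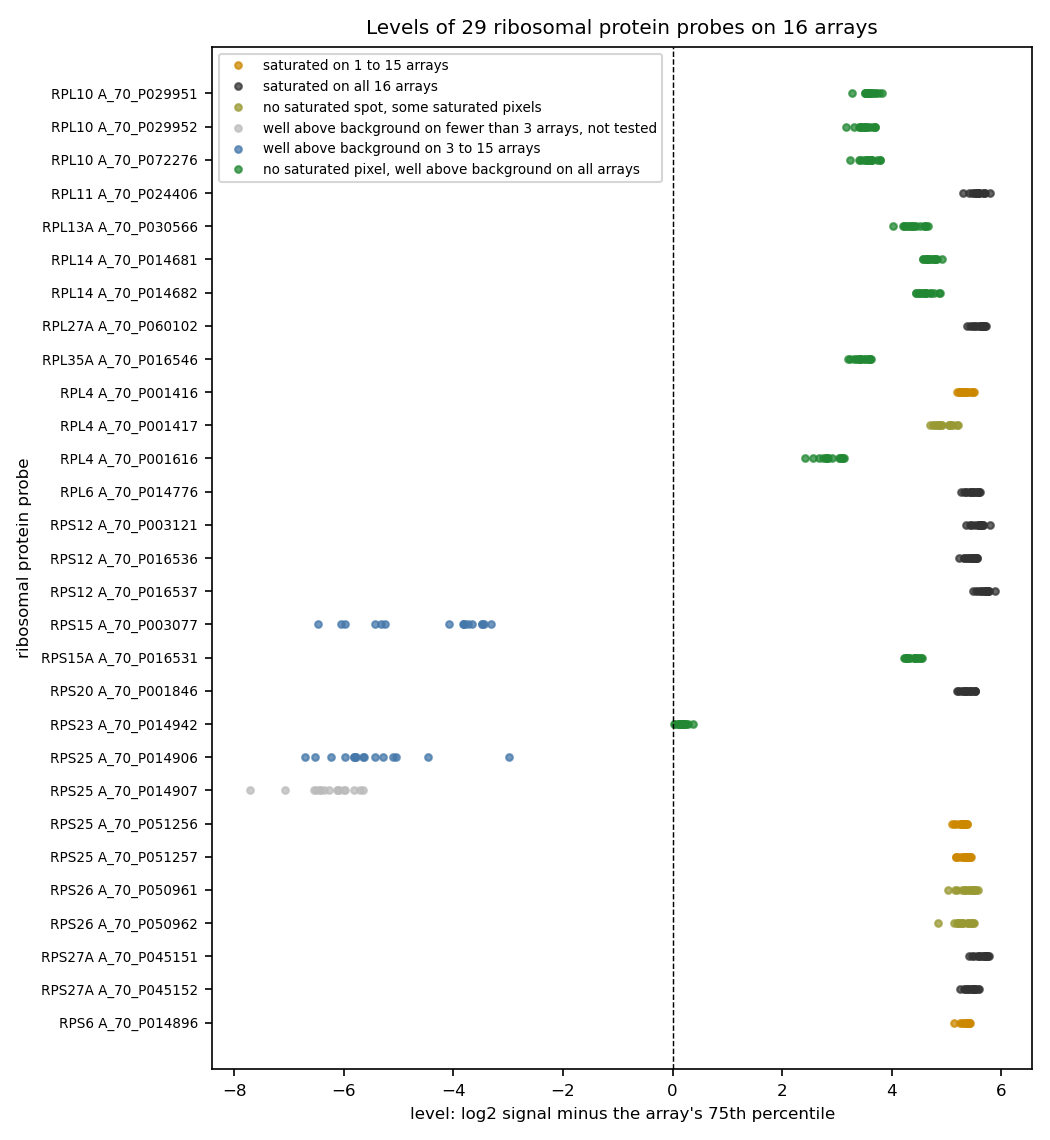
Each row is 1 of 29 ribosomal protein probes and each point 1 of the 16 arrays, placed by level (log2 signal minus the array's 75th percentile, dashed line at 0). Colors give how well each probe was measured: the probes saturated on all arrays crowd at the right between 5.20 and 5.88, and the 3 dim probes for RPS15 and RPS25 lie at the left.

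The 10 probes saturated on every array covered 7 genes. Among them were RPL6, RPL11 and RPL27A of the large subunit and RPS12 with 3 probes, RPS20 and RPS27A with 2 probes of the small subunit. RPS27A is made as a fusion with ubiquitin, and RPL11 is known for binding the p53 regulator MDM2 when ribosome assembly is disturbed. For these genes no difference between groups can be given, because both sides of each comparison are at the ceiling. Their levels still moved with the scaling of the arrays. The median of their fitted differences between HK and HC was 0.11 log2 units, while the difference between these groups in the 75th percentile itself, with its sign turned, was 0.093. A further 4 probes were saturated on only some arrays. These were RPS6, the substrate of S6 kinase, on 10 arrays, the 2 bright RPS25 probes on 8 and 1 arrays, and RPL4 A_70_P001416 on 4 arrays. Their differences between groups, given here as read with the saturated spots included, lay between -0.021 and 0.13 in the pairwise comparisons, and none passed the threshold.

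No probe named for the stalk proteins RPLP0, RPLP1 and RPLP2 met the naming rule, and neither did any for RPL3, RPL5, RPS3 or RPS19. The remaining bright probes were measured within range. No spot was saturated for the 2 RPS26 probes and RPL4 A_70_P001417, although single pixels were on 5 to 15 arrays. A set of 11 probes for 8 genes had no saturated pixel and was well above background on all 16 arrays. It included RPL4 A_70_P001616, the 3 RPL10 probes, RPL13A, the 2 RPL14 probes and RPL35A of the large subunit, and RPS15A and RPS23 of the small subunit. These are called the measured probes here, and the comparisons rest mainly on them. Their median level per array was 3.60 ± 0.084 for the NC arrays (mean and SD, n = 3), 3.58 ± 0.065 for NK (n = 4), 3.60 ± 0.17 for HC (n = 5) and 3.60 ± 0.098 for HK (n = 4). The groups overlapped fully, with HC spanning the widest range, from 3.35 to 3.79.

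The first comparison, HC against NC, addressed hypoxia alone. None of the 30 ribosomal protein probes that were tested passed an unadjusted p under 0.05, which is the cut the authors used, while 8.16% of all tested probes did. Of these 30, 10 were saturated on every array and could not show a difference, so counts out of 30, here and below, say nothing about them. Among the 16 tested probes never saturated 0 were called, and among the 11 measured 0. No ribosomal protein probe separated the HC from the NC arrays, and 4.93% of all tested probes had groups that did not overlap. The fitted differences of the 11 measured probes lay between -0.11 for RPL13A and 0.048 for RPL14 A_70_P014682, with a median of -0.017. The median over all 30 was -0.012 and that over all tested probes was -0.027. The smallest adjusted p among the 30 probes, by limma with Benjamini-Hochberg adjustment, was 0.819.

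Ketamine under normoxia was examined by comparing NK with NC. Again 0 of 30 ribosomal protein probes were called, against 1.09% of all tested probes, and none separated the groups, against 2.32%. The differences of the measured probes lay between -0.12 for RPL10 A_70_P029952 and 0.085 for RPL35A, a protein mutated in some families with Diamond-Blackfan anemia. Their median was -0.0024. With the replicate number as a block in the model, 1 of the 30 was called, the dim RPS15 probe, at 1.09 log2 units (limma, unadjusted p = 0.0285), and 1.53% of all tested probes were called under that block.

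To test whether ketamine altered the transcripts after hypoxia, HK was compared with HC. RPL13A was higher in HK and was the only 1 of the 30 probes called, a share of 3.33% where 7.04% of all tested probes were called in either direction and 3.25% as higher. RPL13A alone made up 6.25% of the 16 tested probes never saturated and 9.09% of the 11 measured. The HK and HC arrays overlapped for it as for the other 29, and they did not for 1.55% of all tested probes. Of the 11 measured probes, 10 had a positive difference, with a median of 0.088, where 57.1% of all tested probes were positive. The median over the 16 tested probes never saturated was 0.069. Over all 30 it was 0.087, beside 0.031 over all tested probes. Medians over the 30, here and under the other settings, include the 10 probes at the ceiling, for which no difference can be given. The 3 RPL10 probes share 42 bases and the 2 RPL14 probes 59, so the 11 are not separate readings. The difference between HK and HC in the 75th percentile itself, with its sign turned, was 0.093. Its part in these medians was not tested. Under some other settings the median over the 30 probes fell below that of all tested probes. It was 0.0061 with quantile normalization (0.032 over all tested probes), 0.0092 with normexp (0.17) and 0.014 in the authors' deposited values (0.021). It stayed above with scaling to each array's median (0.10 beside 0.047), slide as a block (0.093 beside 0.032) and array weights (0.085 beside 0.040). Differences of the other measured probes lay between -0.025 for RPS15A and 0.16 for RPL4 A_70_P001616, and none passed the threshold.

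When hypoxia was compared in the presence of ketamine, HK against NK, 0 of 30 probes were called, against 8.69% of all tested probes, and none separated the groups, against 5.42%. The measured probes had a median difference of 0.049, between -0.039 for RPL35A and 0.19 for RPL4 A_70_P001616. RPL4 A_70_P001417 was 0.18 higher in HK (SE 0.12, unadjusted p = 0.135 by limma). The interaction, in which the NK minus NC difference is subtracted from the HK minus HC difference, called 0 of 30 probes where 3.8% of all tested probes were called. The interaction was largest among the measured probes for RPL13A, at 0.27 (SE 0.17, unadjusted p = 0.129 by limma). Of the 16 tested probes never saturated, 0 were called in NK against NC, in HK against NK or in the interaction. After adjustment none of the 30 probes was called in any of the 5 comparisons, where limma called 0.00816% of all tested probes (1 probe) in HK against NK and 0% in the others. Each of the 4 groups enters more than 1 of these comparisons, so the comparisons are not independent of each other.

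**Figure D2:**
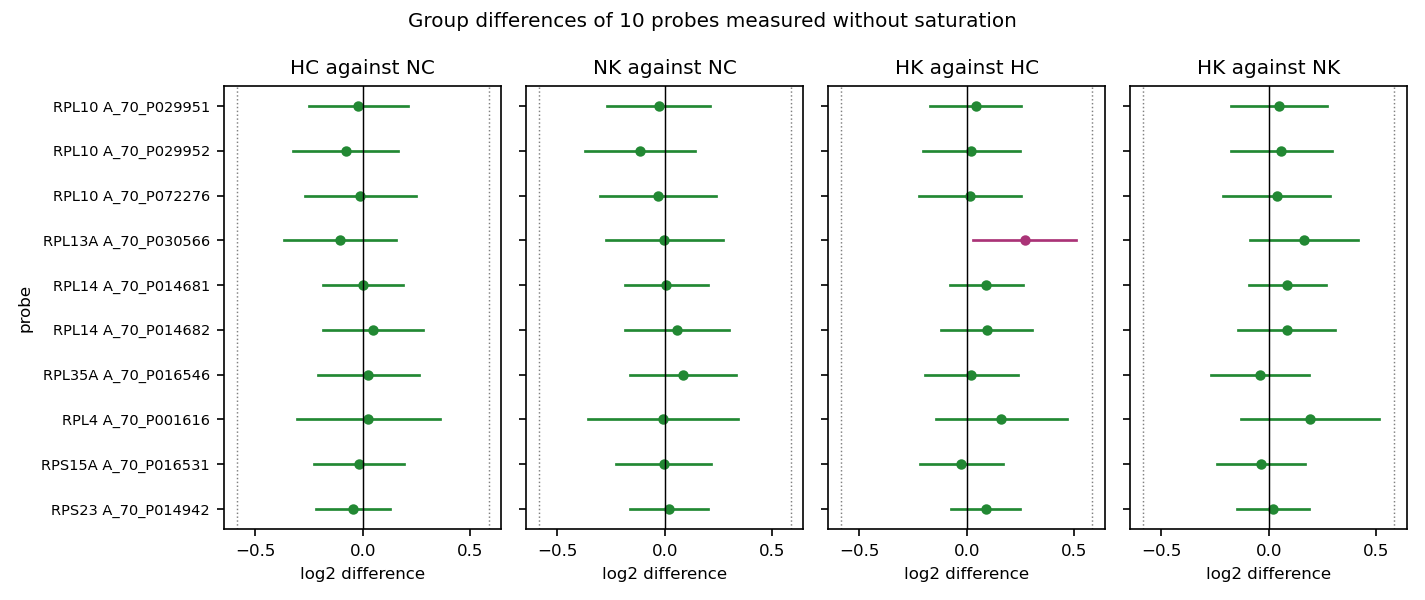
Each point is the fitted difference between 2 groups (log2) for 1 of 10 measured probes, with its 95% confidence interval as a line and the called probe in purple. Dotted lines mark a 1.5-fold difference either way, and every interval lies between them, including that of RPL13A in HK against HC, from 0.031 to 0.51.

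The data limited how large a difference could have gone unseen. In each of the 4 pairwise comparisons all 11 measured probes had 95% confidence intervals inside 1.5-fold in both directions. Over all tested probes this was true of 55.3% between HC and NC, 59.2% between NK and NC, 60.2% between HK and HC and 56.1% between HK and NK. The widest bounds for the measured probes were -0.37 and 0.36 for HC minus NC, -0.37 and 0.34 for NK minus NC, -0.22 and 0.51 for HK minus HC and -0.27 and 0.51 for HK minus NK. For the interaction, 9 of the 11 intervals lay inside 1.5-fold, against 40.6% of all tested probes. Measured ribosomal protein probes varied little between fetuses of the same group, with a median residual SD of 0.14 log2 units, between 0.091 for RPS23 and 0.21 for RPL4 A_70_P001616. Over all tested probes the median was 0.24, and 20.8% of tested probes had a smaller SD than 0.14. Level was not matched between these sets of probes.

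RPL13A was read at 4.61, 4.22 and 4.32 in NC and at 4.60, 4.21, 4.34 and 4.38 in NK. In HC its levels were 4.28, 4.03, 4.40, 4.25 and 4.44, and in HK they were 4.51, 4.39, 4.66 and 4.63. The HK arrays thus sat high and close together, but HC3 and HC5 reached above the lowest HK array, and NC1 and NK1 lay within the HK range. The difference between HK and HC was 0.27 log2 units (SE 0.11), a 1.21-fold higher level with a 95% confidence interval from 1.02 to 1.42. Its unadjusted p was 0.0296 and its adjusted p 0.697 by limma. An exact two-sided permutation test found 6 of 126 arrangements of the 9 arrays as extreme, which gave p = 0.0476. HK was not separated from NK, the difference being 0.16 (SE 0.12, unadjusted p = 0.182 by limma), and HC differed from NC by -0.11 (SE 0.12, unadjusted p = 0.389 by limma).

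The RPL13A difference had a similar size on both slides and, in the fit without a block, lay close to the threshold. On slide 1 alone HK exceeded HC by 0.30 log2 units (2 arrays a group, unadjusted p = 0.206 by limma) and on slide 2 alone by 0.28 (2 HK and 3 HC arrays, unadjusted p = 0.0386). With slide as a block it was 0.28 (unadjusted p = 0.0252), and with the replicate number as a block it was 0.31 (unadjusted p = 0.00653 by limma). It missed the threshold without HC2 (0.21, unadjusted p = 0.0766), without HC4 (0.26, unadjusted p = 0.0504), without HK3 (0.23, unadjusted p = 0.0823) and without HK4 (0.24, unadjusted p = 0.0724). With background corrected by normexp it was 0.15 (unadjusted p = 0.404), and in the authors' deposited log2 values it was 0.20 (unadjusted p = 0.0528). Its interaction, at 0.27 without a block, was 0.32 with the replicate number as a block and passed the threshold there (unadjusted p = 0.0382).

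Markers of microglia and macrophages are given beside this result. Only 2 of the 10 genes on that list were named on the array, CD14 and ITGAM, with 4 probes. Between HK and HC, 1 of these 4 was called as lower, CD14 A_70_P030286, at -1.35 log2 units (unadjusted p = 0.0274 by limma), where 3.79% of all tested probes were, and none as higher. The other CD14 probe differed by -1.18 (unadjusted p = 0.0547 by limma). The ITGAM probes differed by 0.020 (unadjusted p = 0.958 by limma) and -0.084 (unadjusted p = 0.785 by limma). Between HC and NC 3 of the 4 were called as higher, both CD14 probes and 1 for ITGAM, against 4.22% of all tested probes. The summed signal of the 4 probes, in units of the array's 75th percentile, ranged from 0.297 to 0.338 for NC, 0.221 to 0.388 for NK, 0.259 to 1.89 for HC and 0.207 to 0.764 for HK. HC was the group with the highest values, and none of the probes was at 0. The part of these cells in the RPL13A difference was not tested.

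**Figure D3:**
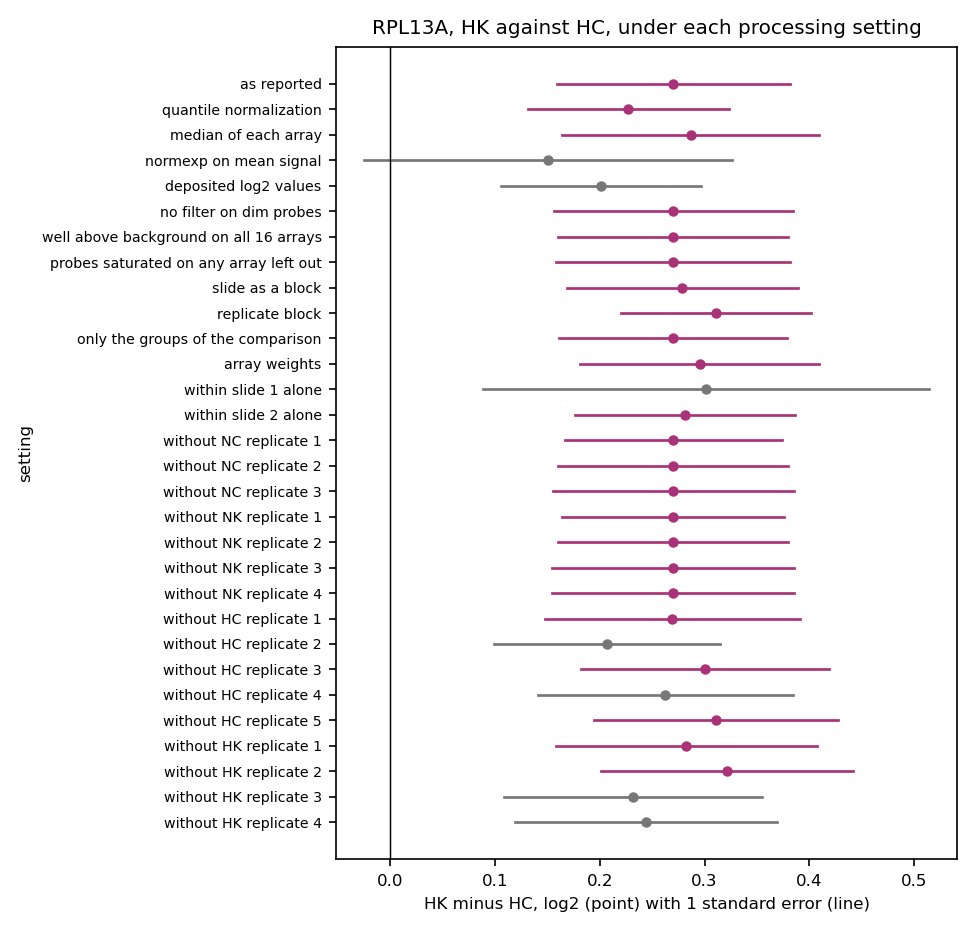
The difference in RPL13A between HK and HC (log2, points, with 1 standard error as a line) under each way of processing the arrays and with each array left out. Purple marks settings with an unadjusted p under 0.05; the difference stays positive in all of them, from 0.15 to 0.32, and falls short of the threshold in 7.

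The 3 RPL10 probes had the same lowest array but did not rank the arrays alike throughout. RPL10 A_70_P029951 read 3.72, 3.59 and 3.52 in NC, 3.53, 3.52, 3.65 and 3.61 in NK, 3.57, 3.70, 3.82, 3.58 and 3.27 in HC, and 3.53, 3.60, 3.62 and 3.76 in HK. All groups overlapped, and the HC arrays held both the highest and the lowest value. HC5 was lowest for each of the 3 probes, at 3.27, 3.17 and 3.24, and HC3 was highest for 2 of them, while HK4 was highest for RPL10 A_70_P029952. NK2 was the lowest NK array for RPL10 A_70_P029951, at 3.52, and the highest for RPL10 A_70_P072276, at 3.62. Because the probes share at least 42 bases, they are not independent. The differences of all 3 were between -0.12 and 0.059 in the pairwise comparisons.

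RPL4 A_70_P001616 had the largest residual SD of the measured probes. Its levels were 2.74, 2.79 and 2.92 in NC, 2.79, 2.57, 2.84 and 3.04 in NK, 2.43, 3.06, 3.08, 2.82 and 2.81 in HC, and 3.10, 2.68, 3.10 and 3.13 in HK. HK2 stood below the other 3 HK arrays, and HC1 was the lowest of all. RPL4 A_70_P001417, at a different place in the transcript, also had its lowest HK value in HK2, at 4.76 against 5.20, 5.06 and 5.21. Without HK2, RPL4 A_70_P001417 was 0.28 higher in HK than in NK (unadjusted p = 0.0205 by limma) and RPL4 A_70_P001416 was 0.17 higher in HK than in HC (unadjusted p = 0.0419), so that both passed the threshold. With that array both missed it in the unweighted fit, and RPL4 A_70_P001417 passed with array weights (0.23, unadjusted p = 0.0476 by limma). Without HK2, 1457 of the 12250 tested probes were called in HK against NK and 1242 in HK against HC, so the shares called among the 30 were below those of all probes. RPL4 A_70_P001416 was saturated on 4 arrays.

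RPL14, another large-subunit protein, was read by 2 probes that differ by a shift of 1 base. RPL14 A_70_P014681 had means of 4.68 ± 0.094 (SD) for NC, 4.69 ± 0.046 for NK, 4.68 ± 0.12 for HC and 4.77 ± 0.11 for HK. RPL14 A_70_P014682 averaged 4.56 ± 0.093, 4.62 ± 0.14, 4.61 ± 0.066 and 4.70 ± 0.21 in the same order. Although these probes share 59 bases, only the second was higher on slide 2, by 0.20 log2 units (unadjusted p = 0.00259 by limma, with group in the model), while the first differed by 0.038 (unadjusted p = 0.536). RPL35A was likewise 0.20 higher on slide 2 (unadjusted p = 0.00288). These were the 2 of the 11 measured probes (18.2%) that differed between slides, close to the 20.1% of all tested probes.

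**Figure D4:**
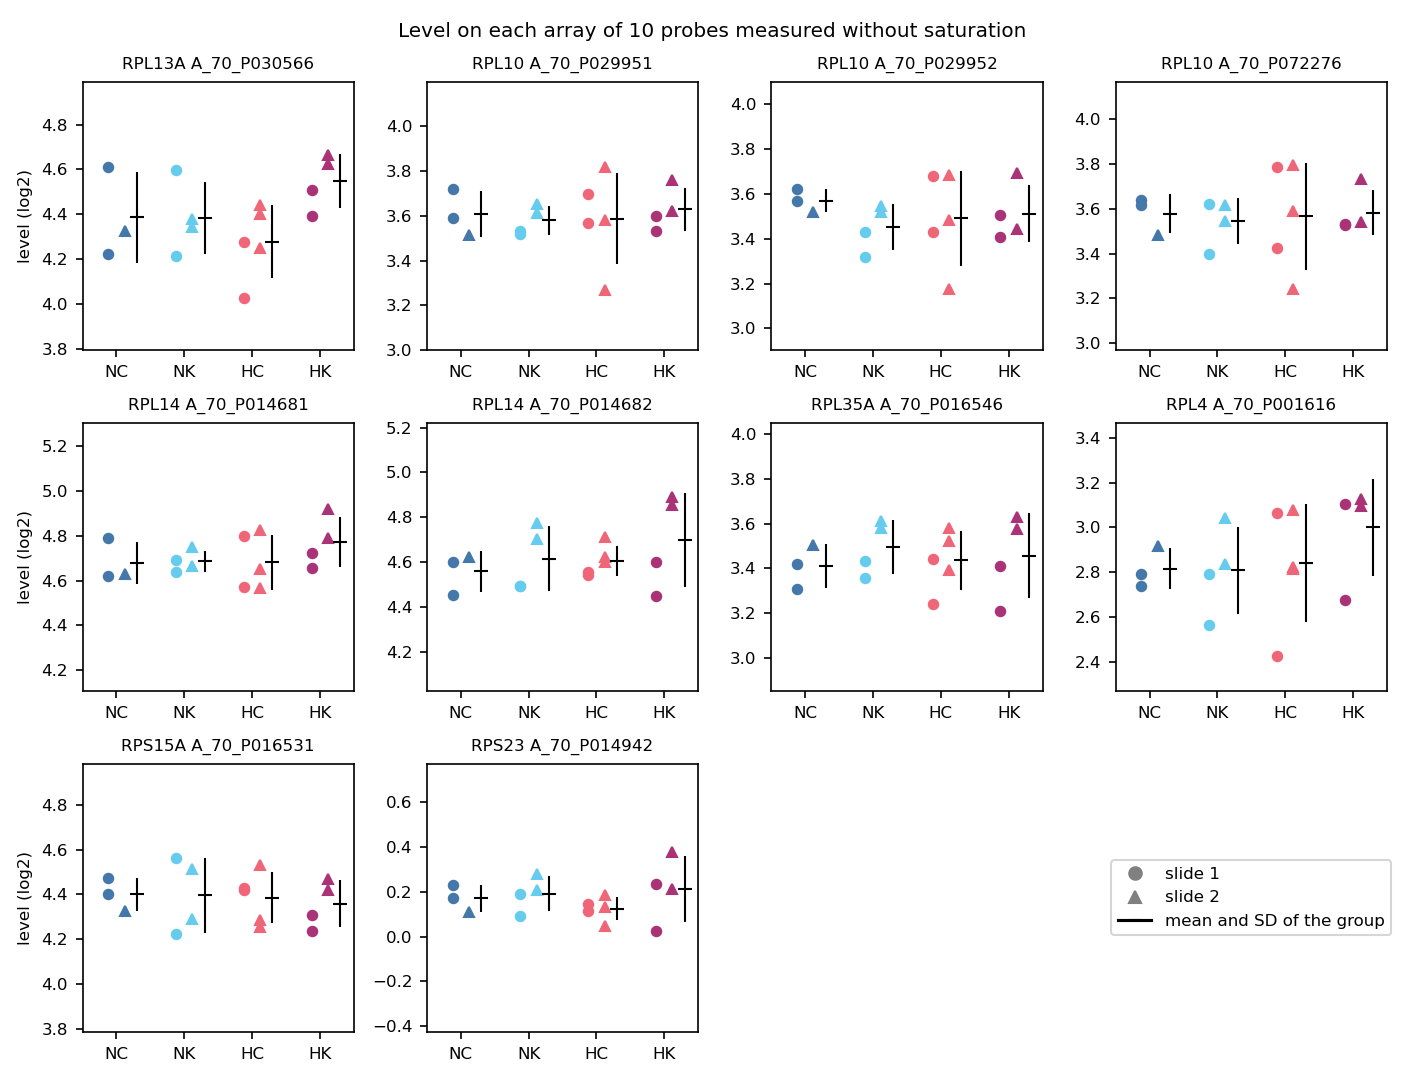
Level on each array (log2 signal minus the array's 75th percentile) of 10 measured probes in the 4 groups, with circles for slide 1, triangles for slide 2 and the group mean with SD in black; every panel spans 1.2 log2 units. The groups overlap in every panel, HK2 lies apart from the other HK arrays for RPL4, and slide 2 lies above slide 1 for RPL35A and RPL14 A_70_P014682.

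Measured genes of the small subunit were as even. RPS15A had means of 4.40 ± 0.074 (SD) for NC, 4.40 ± 0.17 for NK, 4.39 ± 0.11 for HC and 4.36 ± 0.11 for HK. RPS23, which contributes to decoding at the heart of the small subunit, was read close to the array's 75th percentile, at 0.17 ± 0.060 for NC, 0.19 ± 0.077 for NK, 0.12 ± 0.051 for HC and 0.21 ± 0.15 for HK. None of these differences passed the threshold. RPS26, at the messenger RNA exit of the small subunit, is 1 of the genes mutated in Diamond-Blackfan anemia, and its 2 probes, which share 59 bases, read lowest on HK1, at 5.03 and 4.85, while the other HK arrays lay between 5.38 and 5.57. With single saturated pixels on 15 and 8 arrays, differences at the top of that range are compressed.

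Probes with the same gene name did not always report the same signal. RPS25 had 2 probes near the ceiling, starting at bases 292 and 366 of their source sequence, and 2 probes starting at bases 744 and 704 that were well above background on only 6 and 1 of the 16 arrays. The dim pair had its name from the array design only, while the bright pair also matched the RefSeq table. RPS15 was represented only by a dim probe, well above background on 13 arrays, which was 1.78 log2 units lower on slide 2 than on slide 1 (unadjusted p = 8.59e-05 by limma). RPS15 A_70_P003077 and RPS25 A_70_P014906 had 95% confidence intervals reaching from -2.26 to 2.44 log2 units, so their group differences could not be resolved.

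Other parts of the translation machinery could be set beside these genes only in small number. Of 51 listed initiation and elongation factors and related genes, 8 were named on the array, with 13 probes. The TPT1 probe among them was saturated on all 16 arrays. Of these 13, 1 was called in HC against NC, as lower, where 3.93% of all tested probes were, and it was an EEF1A1 probe, the elongation factor that brings transfer RNA to the ribosome, at -0.30 log2 units (unadjusted p = 0.0335 by limma). The other EEF1A1 probes differed by -0.12 (unadjusted p = 0.229 by limma) and 0.0025 (unadjusted p = 0.989 by limma). In NK against NC 0 of 13 were called. A probe for EIF3A, a subunit of the initiation factor that binds the small subunit, was called as lower in HK against HC, at -0.66 (unadjusted p = 0.0385), where 3.79% of all tested probes were. The other EIF3A probe missed the threshold there, at -0.52 (unadjusted p = 0.0632 by limma). In HK against NK 3 of 13 were called, all lower, which were EIF3A with both probes, at -0.82 (unadjusted p = 0.00999) and -0.86 (unadjusted p = 0.0135), and a probe for PABPC1, a poly(A)-binding protein, at -0.21 (unadjusted p = 0.0273). The other PABPC1 probe missed the threshold, at -0.19 (unadjusted p = 0.0816 by limma). For comparison, 6.31% of all tested probes were called as lower between HK and NK. None of these passed after adjustment, the smallest adjusted p being 0.404. RPSA, a small-subunit protein that the array names as a laminin receptor and that the naming rule therefore left out, differed by -0.017 to 0.21 in the pairwise comparisons, and its smallest unadjusted p by limma was 0.336.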

How the data were processed

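Cyanine 3-labelled hypothalamic RNA of 16 fetuses was measured on 1-color arrays of 2 slides. The deposited scanner files came, per the file headers, from Feature Extraction 10.1.1.1 and hold linear intensity values, background-subtracted and spatially detrended by that software, which the authors had not normalized between arrays. The authors also deposited a table of log2 values for the same spots, with column medians between 8.473 and 8.475 and no method given in the sources used here; its scale and centring beyond this are unknown, and it served only as an alternative.

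Control spots (536 of 15744) and outlier spots (0.0801%) were left out. Log2 of the processed intensity was taken relative to the array's own 75th percentile and averaged over the spots of a probe. Saturated spots were kept. The test covered the 12250 of 15008 probes with a signal well above background on 3 or more arrays. A 4-group linear model was fitted to all arrays with limma 3.58.1 in R 4.3.3, and probes were called at an unadjusted two-sided p under 0.05, with Benjamini-Hochberg adjustment over all tested probes. Scripts were tested on simulated data. Alternatives covered scaling, background correction, filters, slide and replicate blocks, array weights and each array left out. Of the 32 probes, 13 were named through a RefSeq table of the assembly ARS-UI_Ramb_v3.0 and the others by the array design, whose names can be old. The files give no genome build or position for the probes, so no coordinates are reported. Probes described in full were those called in any comparison, well-known members and the brightest and dimmest probes. Some genes that met the rule are not reported here, although counts, ranges and medians include them. The members and lists were chosen with earlier results of these data known.

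Same-numbered arrays deviated together in NK against NC (correlations of 0.198, 0.297 and 0.222) and in HK against NK (0.194 to 0.338). The labels give these numbers, and numbers 1 and 2 lie on slide 1, so the numbers also carry slide. The number of arrays limits the precision. The p-values set each difference against the spread between fetuses of the same group, which without a block also holds differences between slides.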

Additional observations from a re-analysis of the deposited data

Results flagged for a closer look

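Among 33 sets of arrays examined, which were the 11 measured probes in NK, HC and HK, 2 held an array that stood apart from the rest of its group, where chance gives about 1 in 20. RPL4 A_70_P001616 read 2.68 in HK2, while the other HK arrays lay between 3.10 and 3.13. RPL10 A_70_P072276 read 3.73 in HK4, while the other HK arrays lay between 3.53 and 3.54.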

How the results depend on the processing

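In HK against HC the count of 1 fell to 0 with normexp background correction, with the authors' deposited values and on slide 1 alone, and it ranged from 0 to 2 when single arrays were left out. In HK against NK it was 1 with array weights and 0 to 1 when single arrays were left out. With the replicate number as a block it was 1 in NK against NC and 2 in the interaction, where RPL13A and RPS15 (-1.41 log2 units, unadjusted p = 0.0336 by limma) passed, while 1.53% and 4.53% of all tested probes were called; no other count changed under the block. In HC against NC same-numbered arrays had correlations from -0.058 to 0.090. In HK against HC these correlations were 0.346, 0.227, 0.066 and 0.103, so pairing by number was uneven there. Of the arrays, 9 of 16 correlated best with an array of their own number but 15 of 16 with one of their own slide. With normexp, the median over the 30 probes was 0.14 in NK against NC, -0.080 in HK against NK and -0.14 in the interaction, beside all-probe medians of -0.22, 0.22 and 0.38. In HK against HC the median over the 30, of which 10 were saturated on every array, was 0.087 (0.031 over all probes). It became 0.0061 with quantile normalization (0.032), 0.0092 with normexp (0.17) and 0.014 in deposited values (0.021). It was 0.10 with scaling to each array's median (0.047), 0.093 with slide as a block (0.032) and 0.085 with array weights (0.040). Slide 2 alone, with 1 NC array assumed to vary like the other groups, gave 0.12 in NK against NC and -0.028 in the interaction. The cause of these changes was not tested. Medians over only the 11 measured probes, chosen after seeing the data, were taken in the fit used for the results and under no other setting. There they differed from the medians over the 30 by less than 0.079, the SD of the 30-probe array medians within groups. Saturation left 7 genes without a measurable difference.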
